A study of Mus musculus with 25 samples.

Results

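Members of 4 miRNA families that neurons use at the synapse were examined, miR-129, miR-138, miR-153 and miR-135, in the hypothalamus of mice whose dams, own diet or both had been hypercaloric. They are mmu-miR-129-5p, mmu-miR-129-1-3p, mmu-miR-129-2-3p, mmu-miR-138-5p, mmu-miR-153-3p, mmu-miR-135a-5p and mmu-miR-135b-5p (written below without the species prefix), 7 of the 1618 miRNAs in each table, chosen by name. A miRNA is a short RNA, cut from one arm (5p or 3p) of a hairpin, whose seed pairs with messenger RNAs and lowers their translation and stability. In neurons of rodents, miR-129-5p is known to repress the potassium channel Kv1.1 and to take part in the scaling down of synapses after high activity. The spine-limiting miR-138 represses Lypla1, an enzyme that removes palmitate from proteins. In the presynaptic ending, miR-153 represses SNAP25, a protein of vesicle fusion, as well as alpha-synuclein and APP. Complexins, which also act in vesicle fusion, are repressed by miR-135. In serotonin neurons, miR-135 also represses the serotonin transporter and the receptor Htr1a.

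The mice were wild-type C57BL/6J and were killed at 3 months of age. The diet of the dams was either regular (RD) or hypercaloric (HCD, 52% fat and rich in sucrose), starting 1 month before mating and going on until the young were weaned, after which the offspring received RD or HCD. A group name gives the dam's diet first and the offspring's second. Small RNA of the hypothalamus was sequenced from 4 RD-RD male libraries and from 3 libraries of each of the other groups, which were HCD-HCD, HCD-RD and RD-HCD males and RD-RD, HCD-HCD, HCD-RD and RD-HCD females. The labels name no dam or litter and do not state whether libraries are separate animals. The p-values therefore cover the spread among these libraries only, which may be technical. The deposited tables give 1 fold over RD-RD of the same sex and 1 DESeq2 p per miRNA, no values per library were used, and the depth is unknown. The library names carry order numbers whose meaning the labels do not give. RD-RD libraries of both sexes and RD-HCD females form a series of 10 distinct numbers, and the other 5 groups a second series of 15 that repeats several of them, so numbering series and diet cannot be told apart in comparisons with RD-RD, other than in RD-HCD females. Neuron markers (miR-124-3p, miR-9-5p, miR-128-3p and miR-218-5p) carried no low-count remark in any comparison. By the authors' DESeq2 p with Benjamini-Hochberg adjustment 0 of 4 were called in any, where 19.3% of all miRNAs were called in HCD-HCD and 18.4% in HCD-RD males. At an unadjusted p under 0.05 was miR-124-3p in these 2 male groups, at folds of 1.44 and 1.4, and miR-128-3p in HCD-HCD females, at 0.62, all in the authors' deposited tables. The authors' low-count remark marks a mean under 10 molecules per group.

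The mature sequences of the members that changed, with the sister arms against which they are read, are given 5′ to 3′ with the seed, bases 2 to 8, in capitals. They come from RefSeq on GRCm38.p6, the assembly of mm10, where 5 of the 7 members and 6 of 6 other arms matched.
miR-129-5p: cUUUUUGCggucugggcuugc
miR-129-2-3p: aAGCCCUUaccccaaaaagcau
miR-138-5p: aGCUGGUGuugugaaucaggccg
miR-138-1-3p: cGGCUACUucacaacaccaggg
miR-138-2-3p: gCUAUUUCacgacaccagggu
miR-153-3p: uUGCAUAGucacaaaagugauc
miR-153-5p: gUCAUUUUugugacguugcagcu
miR-135a-5p: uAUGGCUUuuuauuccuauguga

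The 5 matched members carry 5 distinct seeds. A single sequence of miR-129-5p is cut from 2 hairpins, Mir129-2 (chr2:94241419-94241439, minus strand, in an intron of the long noncoding gene Mir670hg) and Mir129-1 (chr6:29022624-29022644, plus strand, in an exon of the long noncoding Gm3294). The 3p arms differ in name and can be told apart, with miR-129-2-3p at chr2:94241376-94241397. Likewise miR-138-5p comes from Mir138-2 (chr8:94324312-94324334, plus strand, exon of the long noncoding C78859) and from Mir138-1 (chr9:122682898-122682920, plus strand, exon of the pseudogene Gm47135). Their 3p arms share 18 of 20 aligned bases, so reads could be split between them. The only Mir153 hairpin gives miR-153-3p at chr12:117250860-117250881 on the plus strand, inside an intron of Ptprn2, which encodes a protein of dense-core secretory vesicles. Of miR-135a-5p there are 2 copies, at chr9:106154140-106154162 on the plus strand (an intron of the antisense gene D030055H07Rik that overlaps an exon of Glyctk) and at chr10:92072141-92072163 on the minus strand (an intron of the long noncoding Rmst). The hairpin of miR-135b lies at chr1:132198088-132198184 on the plus strand, in an intron of Lemd1. Host genes are from GENCODE M21.

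Among the 7 miRNAs, males born to dams on HCD had less miR-153-3p and more miR-129-2-3p, on either diet of their own. In HCD-HCD males miR-138-5p also fell, and in HCD-RD males it stood at a fold of 0.55 in the authors' deposited table, which missed the adjustment. In HCD-HCD males 1 of 7 rose and 2 fell, at a Benjamini-Hochberg (BH) adjusted p under 0.05 over all 1426 miRNAs with a p. Of all miRNAs 5.61% rose and 13.7% fell there, 19.3% in all. In HCD-RD males 1 rose and 1 fell, where 6.38% of all miRNAs rose and 12% fell, 18.4% in all. No member carried a low-count remark. Of the miRNAs with none, adjusted among themselves, 23.4% were called in HCD-HCD and 25.2% in HCD-RD males. The share of members called was thus near or above these shares, on counts of 3 and 2. RD-HCD males had 0 of 7 called, with 0 at an unadjusted DESeq2 p under 0.05, where 1.47% of all were called. In HCD-HCD females 0 of 7 were called and 3 had an unadjusted DESeq2 p under 0.05, against 0.0668% of all called. HCD-RD females had 1 member lower, miR-135a-5p, where 0.693% of all were lower and 1.69% were called in either direction. Of miRNAs with no low-count remark, adjusted among themselves, 4.11% were called there. RD-HCD females had 0 called, with 1 at an unadjusted DESeq2 p under 0.05, and 0% of all 1497 miRNAs were called, with 15 at an unadjusted p under 0.05. With Holm in place of BH adjustment, 0 of 7 were called in HCD-HCD males and 0 in HCD-RD females. The median log2 fold of the 7 lay between -0.12 and 0.07 in the 6 comparisons, and that of all miRNAs between -0.27 and 0.06. The members moved in opposite directions, so their median hides the changes. All comparisons of a sex share its RD-RD libraries and are therefore not independent of each other.

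**Figure D1:**
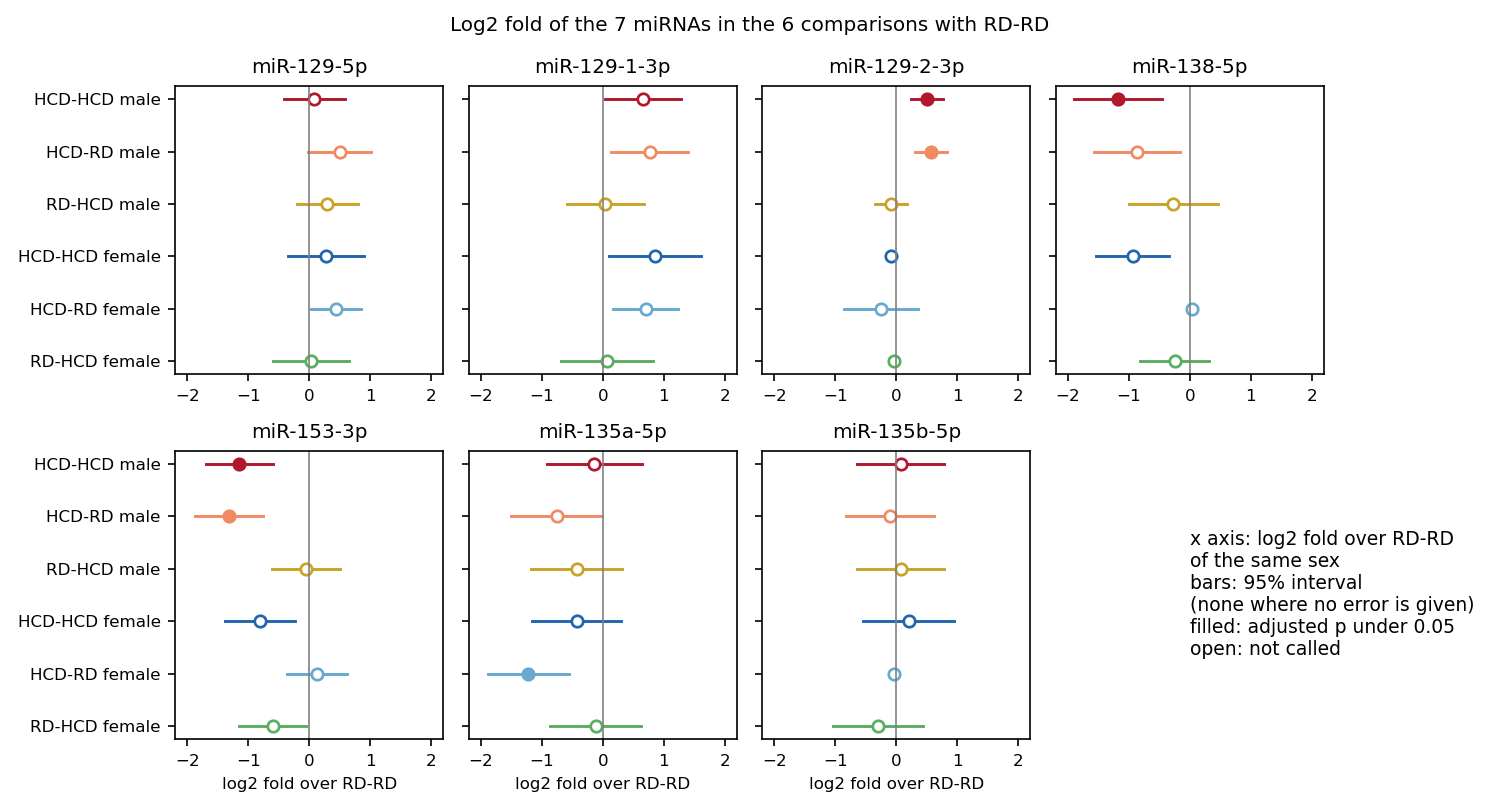
Log2 fold over RD-RD of the same sex (x axis) for each of the 7 miRNAs (panels) in the 6 diet groups (rows), with 95% intervals from the implied error. Filled points have an adjusted p under 0.05. In HCD-HCD and HCD-RD males miR-153-3p lies left of 0 at -1.15 and -1.32, and miR-129-2-3p right of 0 at 0.51 and 0.57. Also filled are miR-138-5p at -1.18 in HCD-HCD males and miR-135a-5p at -1.22 in HCD-RD females.

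The presynaptic miR-153-3p had the smallest adjusted p of the 7. In the authors' deposited table for males it stood at 0.45 of the RD-RD level in HCD-HCD, at 0.4 in HCD-RD and at 0.96 in RD-HCD mice. The 2 groups with dams on HCD were thus low and the group that ate HCD only after weaning was near RD-RD. On the log2 scale the change was -1.15 in HCD-HCD males (standard error 0.28, which the deposited fold and p imply, BH-adjusted p = 0.001). In HCD-RD males it was -1.32 (implied standard error 0.28, BH-adjusted p = 0.00014). The RD-HCD male log2 fold of -0.06 had an interval from -0.61 to 0.5.

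In females the authors' deposited tables gave miR-153-3p a level of 0.57 relative to RD-RD for HCD-HCD, 1.09 for HCD-RD and 0.66 for RD-HCD mice. The 2 groups that ate HCD themselves had the lower values, and none passed the adjustment. The HCD-HCD female log2 fold of -0.81 (95% interval -1.38 to -0.24) had an unadjusted DESeq2 p of 0.0054 and a BH-adjusted p of 0.29. That of RD-HCD females was -0.6 (interval -1.15 to -0.05, BH-adjusted p = 1), and that of HCD-RD females 0.12 (interval -0.36 to 0.61).

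The other arm of the Mir153 hairpin, miR-153-5p, did not follow the same order. The authors' deposited table put it at 0.23, 0.23 and 0.22 relative to RD-RD for HCD-HCD, HCD-RD and RD-HCD males, so it fell in all 3 groups, RD-HCD included (log2 fold -2.12, -2.12 and -2.18, BH-adjusted p = 0.00065, 0.00057 and 0.0047). All 3 values carry the remark that 1 of the groups averaged under 10 molecules, and all 3 are taken against the same 4 RD-RD libraries. In females miR-153-5p was below 10 molecules in both groups of each comparison and was not called, with folds of 0.98, 0.71 and 0.97 in the authors' deposited tables. No member carried such a remark in any of the 6 comparisons. The difference between the arms was not tested, as no values per library were used.

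**Figure D2:**
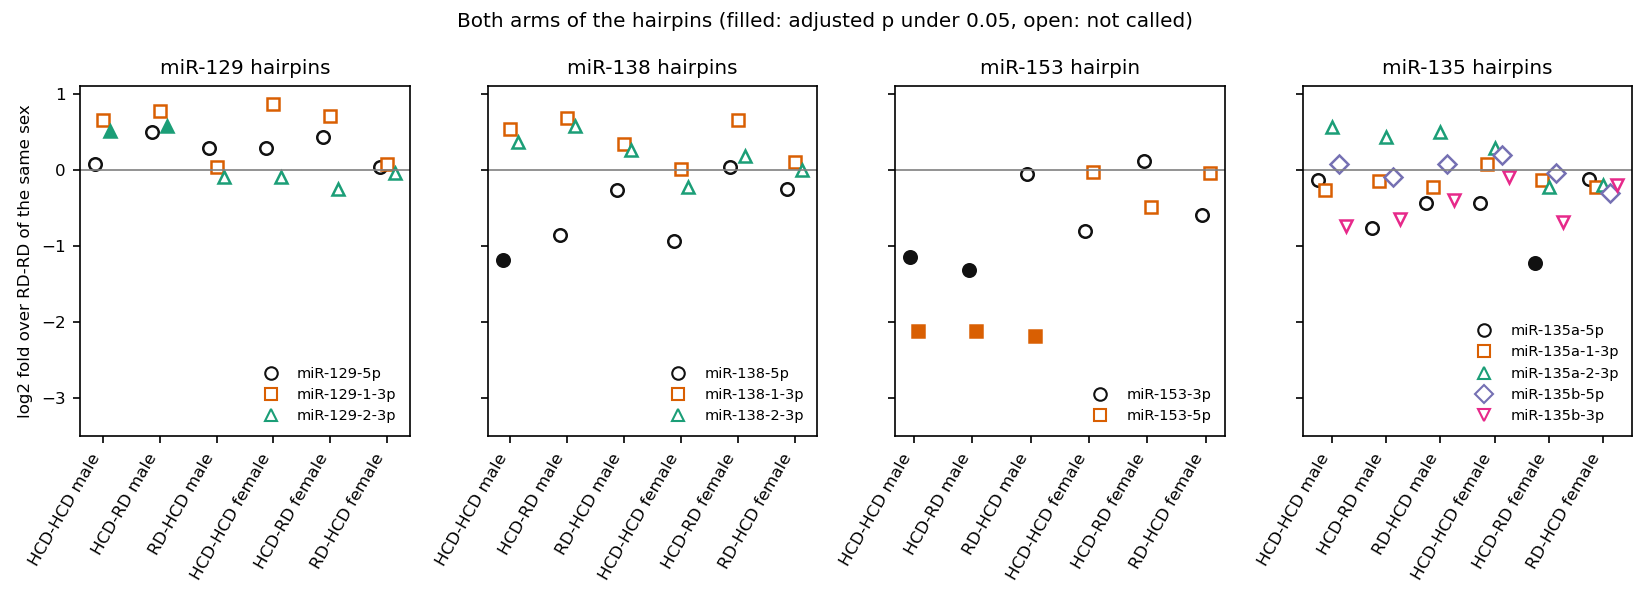
Log2 fold over RD-RD of the same sex (y axis) for every arm of the miR-129, miR-138, miR-153 and miR-135 hairpins (panels) in the 6 diet groups (x axis); filled symbols have an adjusted p under 0.05. In HCD-HCD males miR-138-5p stands at -1.18 while miR-138-1-3p and miR-138-2-3p stand at 0.54 and 0.36, and miR-153-5p lies between -2.18 and -2.12 in all 3 male groups.

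The spine-limiting miR-138-5p fell in HCD-HCD males. In the authors' deposited table for males its fold over RD-RD was 0.44 for HCD-HCD, 0.55 for HCD-RD and 0.83 for RD-HCD mice. All 3 male values were below RD-RD, and HCD-HCD passed the adjustment (log2 fold -1.18, implied standard error 0.37, BH-adjusted p = 0.012). The HCD-RD male value missed it (log2 fold -0.86, interval -1.57 to -0.16, BH-adjusted p = 0.075). With folds centred on the median of miRNAs that carry no remark, it passed (log2 fold -0.95, BH-adjusted p = 0.044). In females the authors' deposited tables gave 0.52 for HCD-HCD, 1.02 for HCD-RD and 0.84 for RD-HCD mice. The HCD-HCD female log2 fold of -0.94 (interval -1.54 to -0.34) had an unadjusted DESeq2 p of 0.0021 and missed the adjustment over 1497 miRNAs (BH-adjusted p = 0.17).

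The 3p arms of the miR-138 hairpins stood on the other side of RD-RD in males, and none was called. In the authors' deposited table miR-138-1-3p was at 1.45, 1.6 and 1.27 times RD-RD in HCD-HCD, HCD-RD and RD-HCD males (BH-adjusted p = 0.2, 0.092 and 0.71). The second 3p arm, miR-138-2-3p, was at 1.28, 1.5 and 1.2 times RD-RD in the authors' deposited table (BH-adjusted p = 0.35, 0.093 and 0.75). In females miR-138-1-3p ranged from 1.01 to 1.58 and miR-138-2-3p from 0.85 to 1.13 times RD-RD in the authors' deposited tables.

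The 3 members of the miR-129 family lay above RD-RD in males with dams on HCD, and of these only miR-129-2-3p was called. Its seed differs from that of miR-129-5p, the arm with the known action on Kv1.1. In the authors' deposited table miR-129-5p had folds of 1.06, 1.41 and 1.22 for HCD-HCD, HCD-RD and RD-HCD males. It was not called in any of them, and its RD-HCD value lay between those of the groups with dams on HCD. The authors' deposited table gave miR-129-2-3p at 1.42 times RD-RD for HCD-HCD, 1.48 for HCD-RD and 0.94 for RD-HCD males. As for miR-153-3p, the values set the 2 groups with dams on HCD apart from RD-HCD. The log2 fold was 0.51 in HCD-HCD males (implied standard error 0.13, BH-adjusted p = 0.0028) and 0.57 in HCD-RD males (implied standard error 0.14, BH-adjusted p = 0.00063). Both folds were below 1.5, and neither was called with a fold of at least 1.5 required. The spread implied for this miRNA in males, an SD of 0.18 on the log2 scale per library, was the smallest of the 7, whose range was 0.18 to 0.51. In females the folds of miR-129-2-3p were 0.94, 0.84 and 0.97 for HCD-HCD, HCD-RD and RD-HCD mice in the authors' deposited tables, with none called.

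The 3p arm of the other hairpin, miR-129-1-3p, was higher in value and wider in error. It stood at 1.58, 1.71 and 1.03 times RD-RD in HCD-HCD, HCD-RD and RD-HCD males in the authors' deposited table (BH-adjusted p = 0.13, 0.074 and 0.98). Female values followed in the same order of groups at 1.81, 1.63 and 1.05 in the authors' deposited tables (BH-adjusted p = 0.64, 0.17 and 1). In each sex the 2 groups with dams on HCD had the higher values, with unadjusted DESeq2 p between 0.0092 and 0.041, and none was called. The shared arm miR-129-5p lay between 1.02 and 1.41 times RD-RD in all 6 comparisons in the authors' deposited tables. Its highest value, in HCD-RD males (log2 fold 0.5, interval -0.02 to 1.01), had a BH-adjusted p of 0.17.

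Of the miR-135 family, miR-135a-5p fell in HCD-RD females. The authors' deposited tables gave it folds of 0.74, 0.43 and 0.92 for HCD-HCD, HCD-RD and RD-HCD females. HCD-RD stood lowest (log2 fold -1.22, implied standard error 0.34, BH-adjusted p = 0.03). Male folds were 0.91, 0.59 and 0.74 in the same order of groups in the authors' deposited table, with HCD-RD again lowest but not called (log2 fold -0.76, interval -1.51 to -0.02, BH-adjusted p = 0.15). Its relative miR-135b-5p had folds from 0.81 to 1.15 in the authors' deposited tables and was called in no comparison, with intervals that reach from -1.04 to 0.95 on the log2 scale. The 3p arms miR-135a-1-3p, miR-135a-2-3p and miR-135b-3p ranged from 0.6 to 1.47 times RD-RD in the authors' deposited tables, and none was called.

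The deposited folds of a table share their RD-RD libraries, which drop out when 2 diet groups are set against each other, and both male groups with dams on HCD then lie in the same numbering series as RD-HCD males. The error of such a difference rests on the implied spread and on how many libraries each group has. In HCD-HCD against RD-HCD males, which differ in the dam's diet, 1 member was higher and 1 lower; of 737 miRNAs 2.58% were higher and 2.99% lower, 5.56% in all. There miR-129-2-3p was 1.51 times as high (log2 difference 0.6, standard error 0.14, BH-adjusted p = 0.0023, normal test of implied errors) and miR-153-3p 0.47 times (log2 difference -1.09, standard error 0.3, BH-adjusted p = 0.008). The authors' deposited list for this pair of groups, limited to a fold of 2 or more, has 47 miRNAs and includes 1 of the 7, miR-153-3p, as 2.18 times lower with an unadjusted p of 6.2e-06. Its unadjusted p in the normal test of implied errors was larger, at 0.00028. Over the 47 listed miRNAs the log2 differences derived here lay a median of 0.122 from the deposited ones. Among those with no remark the largest gap was 0.723. The cause of these gaps was not tested. For miR-138-5p the log2 difference of -0.92 (interval -1.69 to -0.14) had a BH-adjusted p of 0.17.

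HCD-RD against RD-HCD males, which differ in both diets, called the same 2 members in the same directions, where 2.97% of 741 miRNAs were higher and 5.8% lower, 8.77% in all. There miR-129-2-3p was 1.57 times as high (log2 difference 0.65, standard error 0.14, BH-adjusted p = 0.00035) and miR-153-3p 0.42 times (log2 difference -1.26, standard error 0.3, BH-adjusted p = 0.0015). Between HCD-HCD and HCD-RD males, which differ in the offspring's diet, 0 of 7 members were called by the same test and 0 had an unadjusted p under 0.05; 0% of 713 miRNAs were called, with 56 at an unadjusted p under 0.05. The intervals of that log2 difference were -0.42 to 0.76 for miR-153-3p, -0.34 to 0.22 for miR-129-2-3p and -1.08 to 0.44 for miR-138-5p. These p-values do not show that the groups were alike. HCD-HCD against RD-HCD females had 0 of 6 members called by the same test, and 0.516% of 581 miRNAs were called. An unadjusted p under 0.05 in that test was seen for 2, miR-138-5p and miR-129-1-3p. No error could be given for miR-129-2-3p, which was not tested there. Unlike the male groups, these 2 female groups lie in different numbering series, so series and the dam's diet cannot be told apart. In those females the log2 difference of miR-153-3p was -0.21 (interval -0.77 to 0.35).

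**Figure D3:**
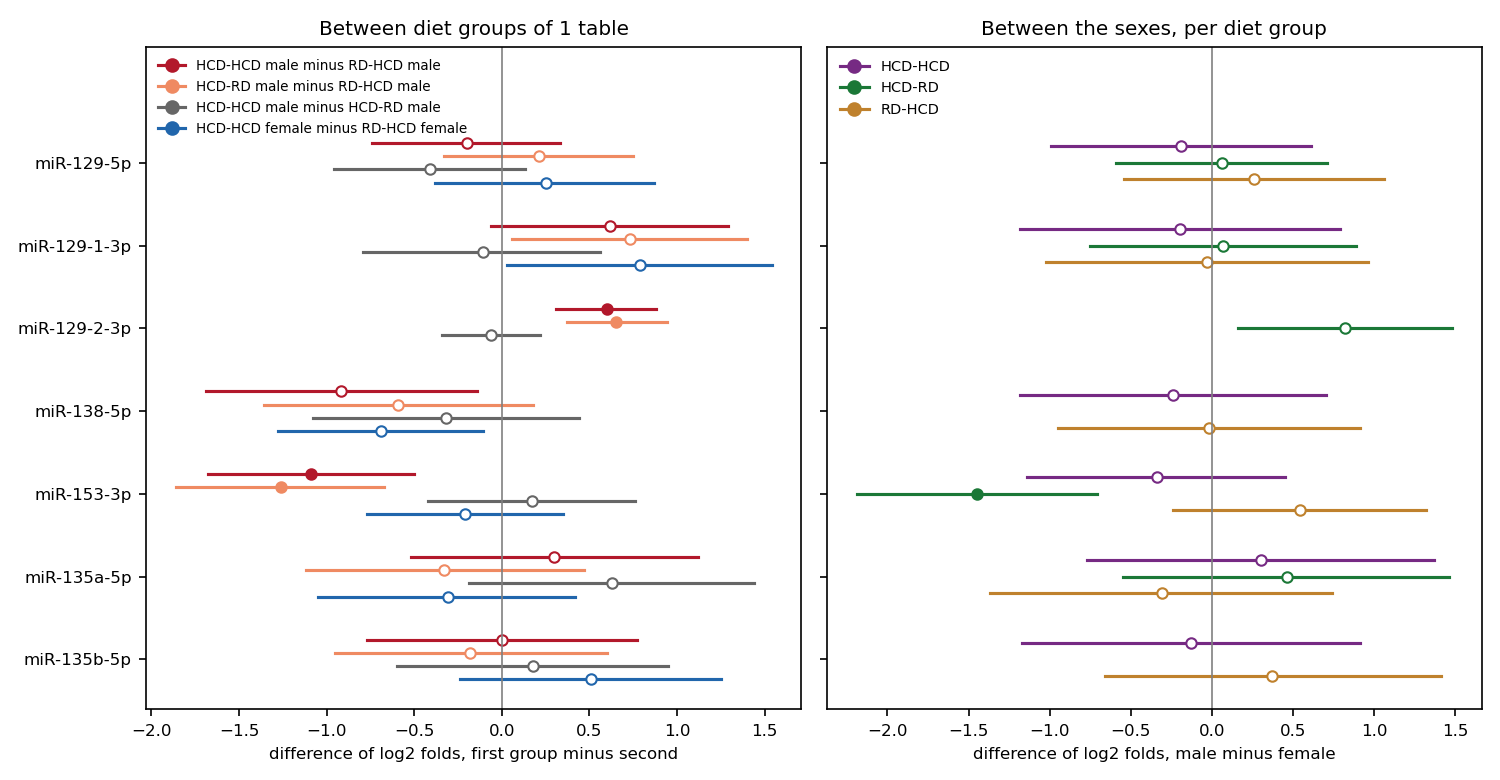
Difference of log2 folds with 95% intervals (x axis) for the 7 miRNAs (rows), between diet groups of 1 table (left) and between males and females of the same diet group (right); filled points have an adjusted p under 0.05. On the left miR-129-2-3p lies at 0.6 and 0.65 and miR-153-3p at -1.09 and -1.26 against RD-HCD males, and on the right miR-153-3p in HCD-RD mice lies at -1.45.

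The response of miR-153-3p to a dam on HCD followed by RD differed between the sexes, 1 of 5 members with an error in both. In HCD-RD mice its log2 fold was -1.32 in males and 0.12 in females, a male minus female difference of -1.45 (standard error 0.38, interval -2.19 to -0.71, BH-adjusted p = 0.007, normal test of implied errors), where 4.44% of 540 miRNAs differed. The male and female tables were normalised separately, and the HCD-RD females apart from the other females. In both sexes HCD-RD lies in the other numbering series than RD-RD. No error could be given for miR-138-5p and miR-135b-5p in HCD-RD females, so their sex difference was not tested. For miR-129-2-3p in HCD-RD mice the difference was 0.82 (interval 0.16 to 1.48), with an unadjusted p of 0.015 in the normal test of implied errors and a BH-adjusted p of 0.15. In HCD-HCD mice 0 of 6 members with an error differed by the same test, 0 had an unadjusted p under 0.05, and 0% of 562 miRNAs differed, with 22 at an unadjusted p under 0.05. There the male minus female interval was -1.14 to 0.45 for miR-153-3p and -1.18 to 0.7 for miR-138-5p. In RD-HCD mice 0 of 6 differed, 0 had an unadjusted p under 0.05, and 0% of 669 miRNAs differed by the normal test, with 11 at an unadjusted p under 0.05. The member left out in HCD-HCD and RD-HCD mice was miR-129-2-3p, which had no error in these females and was not tested. For miR-135a-5p in HCD-RD mice the male minus female difference was not called (0.46, interval -0.55 to 1.46, BH-adjusted p = 0.71).

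In a list of 22 other miRNAs known at synapses, all calls were in HCD-HCD and HCD-RD males. Of the 22, 4 rose and 3 fell in HCD-HCD males, and 6 rose and 4 fell in HCD-RD males. In those comparisons 19.3% and 18.4% of all miRNAs were called, and 23.4% and 25.2% of those with no low-count remark, which none of the 22 carried. By the authors' DESeq2 p with BH adjustment, 0 of the 22 were called in the other 4 comparisons, where at most 1.69% of all miRNAs were, with 1 in RD-HCD males, 4 in HCD-HCD females, 2 in HCD-RD females and 0 in RD-HCD females at an unadjusted p under 0.05. In HCD-HCD males the smallest p-values belonged to miR-329-3p, of the activity-regulated miR-379 to miR-410 cluster, at 2.3 times RD-RD in the authors' deposited table (BH-adjusted p = 1.8e-05). Next came miR-125b-5p, which represses the NMDA receptor subunit Grin2a, at 1.7 times RD-RD in the authors' deposited table (BH-adjusted p = 0.00016). A further member of that cluster, miR-134-5p, which represses the spine kinase Limk1, fell to 0.46 in the authors' deposited table (BH-adjusted p = 0.0026). The PSD-95 repressor miR-125a-5p rose to 1.6 times RD-RD in the authors' deposited table (BH-adjusted p = 0.012).

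In HCD-RD males miR-329-3p again led, at 2 times RD-RD in the authors' deposited table (BH-adjusted p = 0.0004). It was followed by miR-92a-3p, which represses the AMPA receptor subunit GluA1, at 1.95 times RD-RD in the authors' deposited table (BH-adjusted p = 0.0006). From the same cluster as miR-329-3p, miR-381-3p fell to a fold of 0.46 in the authors' deposited table (BH-adjusted p = 0.0038). The value of miR-125a-5p was 1.68 times RD-RD in the authors' deposited table (BH-adjusted p = 0.0047). The list thus held miRNAs of both directions, as the 7 members did, and its median log2 fold was 0.37 in HCD-HCD and 0.21 in HCD-RD males.

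**Figure D4:**
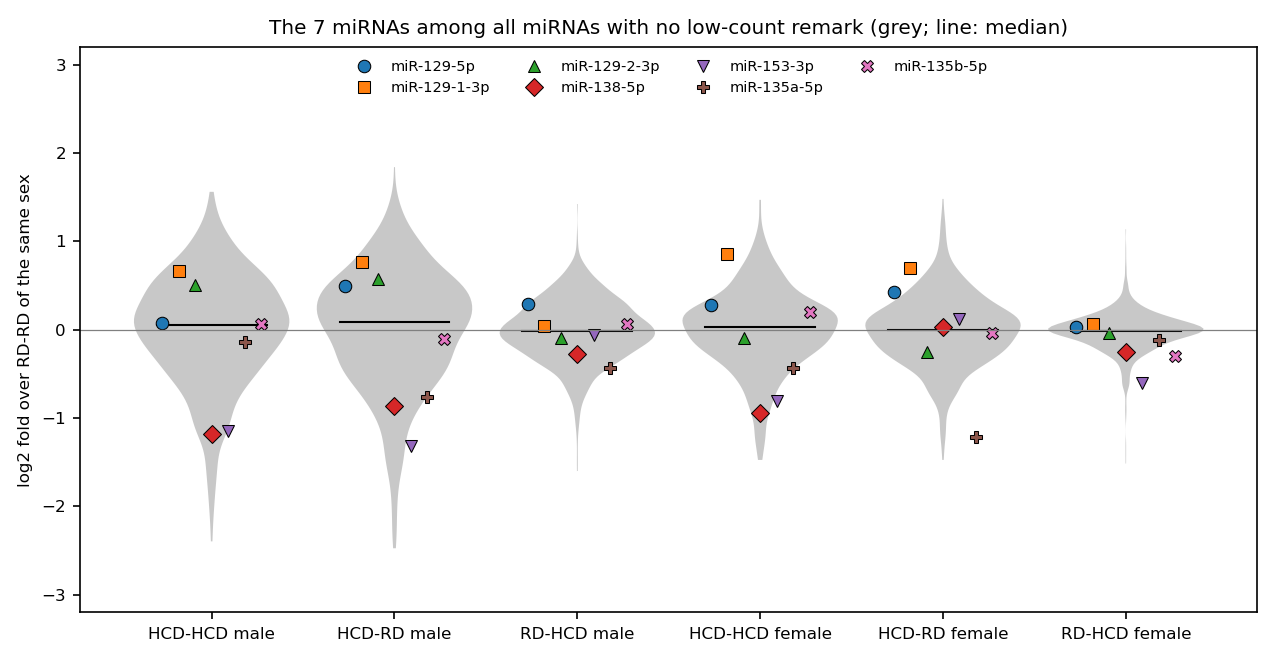
Log2 fold over RD-RD of the same sex (y axis) of all miRNAs without a low-count remark (grey shapes, width by number, black line the median) and of the 7 miRNAs (coloured symbols) in the 6 diet groups (x axis). In HCD-HCD males miR-138-5p and miR-153-3p lie at -1.18 and -1.15, below a median of 0.06, and in HCD-RD females miR-135a-5p lies at -1.22, below a median of 0.

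Markers of other cell types moved in the same male comparisons. Of 20 such markers 4 rose and 6 fell in HCD-HCD males, and 3 rose and 8 fell in HCD-RD males, where 23.4% and 25.2% of all miRNAs with no low-count remark were called in either direction. The levels in HCD-HCD males ranged from 0.26 to 2.09 and in HCD-RD males from 0.18 to 2.34 times RD-RD in the authors' deposited table. Oligodendrocyte, choroid plexus and ependymal, endothelial and mural, and erythrocyte markers held members of both directions across these groups. Of 4 microglia and blood leukocyte markers, the 2 called fell in each group, and they are the arms of a single hairpin, miR-142a-3p and miR-142a-5p. The others were not called, with folds in HCD-HCD and HCD-RD males of 1.32 and 1.07 for miR-223-3p and 0.9 and 1.15 for miR-150-5p in the authors' deposited table. No marker carried a low-count remark. By the authors' DESeq2 p with BH adjustment, 0 of these markers were called in RD-HCD males or in the 3 female groups, with an unadjusted p under 0.05 for 3 in RD-HCD males and for 6, 0 and 1 in the HCD-HCD, HCD-RD (19 with a p) and RD-HCD females. Their part in the results of miR-153-3p, miR-138-5p and miR-129-2-3p was not tested. In bulk tissue, fewer cells of a type and less of a miRNA per cell cannot be told apart.

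The miRNAs whose folds lay closest to those of a member were found by the mean absolute difference of log2 fold over the 6 comparisons, among 607 miRNAs with no remark in any. Closest to miR-153-3p were miR-3106-5p, miR-138-5p and miR-136-5p (0.17, 0.21 and 0.22, where the median over all was 0.76), so 1 of its 3 neighbours was itself among the 7. For miR-138-5p they were miR-301b-3p, miR-210-3p and miR-134-5p (0.13, 0.14 and 0.17, median 0.68). Those of miR-129-2-3p were miR-323-3p, miR-344d-3-5p and miR-124-3p (0.12, 0.13 and 0.13, median 0.37). The list for miR-129-1-3p held let-7b-3p, let-7c-5p and miR-592-5p (0.14, 0.15 and 0.16, median 0.55), and that for miR-135a-5p held miR-1251-5p, miR-6390 and miR-362-5p (0.13, 0.19 and 0.2, median 0.61). For the flatter miR-129-5p the closest were miR-125a-3p, miR-7093-3p and miR-324-5p (0.08, 0.1 and 0.11, median 0.38), and for miR-135b-5p miR-376a-5p, miR-499-3p and miR-3068-3p (0.04, 0.11 and 0.12, median 0.36). The comparisons of a sex share their RD-RD libraries, so this likeness describes the tables and carries no test.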

How the data were processed

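Small RNA libraries with unique molecular identifiers were analysed by the authors, who deposited, per the file headers, a fold (ratio of a group to RD-RD of the same sex after DESeq2 normalisation, to 2 decimals) and an unadjusted DESeq2 p-value per miRNA. The authors' deposited list for HCD-HCD against RD-HCD males gives fold regulation, a score that is the fold or minus its inverse. The submitters' processing notes name mm10; the authors' aligner, counting rule and DESeq2 version were not given in the sources used here. The 3 RD-HCD male libraries are numbered differently in the workbook and the sample titles.

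Of 1721 entries per table, 103 piRNAs were left out. Benjamini-Hochberg adjustment ran over all miRNAs with a p, with calls under 0.05. A standard error is the log2 fold over the normal score of its p; below a log2 fold of 0.1 it was taken from the spread implied in the same table or, failing that, not given. Intervals are 95%. Differences between groups or sexes used a normal test over miRNAs with no remark. The implied spread of HCD-HCD over HCD-RD males had a median ratio of 0.999 over 1152 miRNAs. The calculations were tested on simulated data with normal errors (Python 3.11.15, scipy 1.17.1, pandas 2.3.3). In the simulated difference between groups the spread was taken as known, so its recovery from folds and p-values was not tested there. The count test planned for values per sample could not be run on folds and p-values.

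Members, lists and tests were chosen with earlier results of these data known. Named are the 7 miRNAs, the other arms of their hairpins, at most 4 called miRNAs per comparison of the synaptic list, by smallest p, and the 3 closest in fold to each member. The neuron markers and the microglia and blood leukocyte markers are named as well. The 22 synaptic miRNAs include the 4 neuron markers.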

Additional observations from a re-analysis of the deposited data

Results flagged for a closer look

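The fold of miR-153-3p in HCD-RD mice differed between the sexes. Its log2 fold over RD-RD was -1.32 in males and 0.12 in females, a difference of -1.45 (standard error 0.38, BH-adjusted p = 0.007, normal test of the errors implied by the deposited DESeq2 p-values). The sexes were normalised in separate tables.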

How the results depend on the processing

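No paired analysis was possible because the tables hold 1 fold and 1 p per comparison and no value per library; leaving out each replicate was not run for the same reason. Of the counts of members under other settings 55 stayed within 1.5 times the main count and 8 did not. With Holm adjustment the members called went from 3 to 0 in HCD-HCD males and from 1 to 0 in HCD-RD females. They went from 1 to 0 between the sexes in HCD-RD mice and from 2 to 1 in HCD-HCD against RD-HCD males. In that last pair miR-153-3p had a Holm-adjusted p of 0.2 by the normal test of implied errors. Benjamini-Yekutieli adjustment left 0 in HCD-RD females and lost miR-138-5p in HCD-HCD males (DESeq2 p-values, adjusted p = 0.093). A fold of at least 1.5 ended the call of miR-129-2-3p in both HCD-HCD males (fold 1.42) and HCD-RD males (fold 1.48), which left 2 members and 1 member called. An unadjusted p under 0.01 called 2 members in HCD-HCD females (miR-138-5p and miR-153-3p, lower) and 2 in HCD-RD females (miR-129-1-3p higher, miR-135a-5p lower). With centred folds the uncalled sex differences of miR-129-5p and miR-129-1-3p in HCD-RD mice turned to -0.02 and -0.01. Centring subtracted the median log2 fold of miRNAs with no remark, which was 0.08 in HCD-RD males and 0 in HCD-RD females. The other settings named here changed only the adjustment or the threshold applied to the same folds and p-values. Depth is unknown, and the folds' 2 decimals limit the implied errors of small changes.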

Other observations

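A further hairpin, Mir129b, lies on the strand opposite Mir129-2, at chr2:94241378-94241442 on the plus strand, and was singled out after its values were seen. Its 5p arm, miR-129b-5p, stood at 1.31, 1.51 and 1.09 times RD-RD in HCD-HCD, HCD-RD and RD-HCD males in the authors' deposited table and rose in HCD-RD males (log2 fold 0.59, implied standard error 0.22, BH-adjusted p = 0.042). In females it stood at 1.25, 1.28 and 1.05 in the same order of groups in the authors' deposited tables and was not called. The 3p arm, miR-129b-3p, ranged from 1.01 to 1.26 times RD-RD in the authors' deposited tables and was called in no comparison. Because the hairpins overlap on opposite strands and no counting rule was given in the sources used here, it was not tested whether their reads were kept apart.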
